A study of Homo sapiens with 2 samples.

Results

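The SLC25 family of mitochondrial carriers was described in HCT116 cells, a human epithelial line from a colorectal carcinoma, after knockdown of RAP1. Its members were the genes whose symbol starts with SLC25A, each represented by its brightest probe set with a single gene symbol, and there were 46 of them among 18132 genes with such a probe set. One culture was infected with a lentivirus carrying a single shRNA against RAP1 (shRAP1) and the other with a lentivirus carrying a negative-control shRNA (shNC), both at a multiplicity of infection of 20 and both harvested at 72 h. Each culture was hybridised to 1 array, so each group had n = 1. There was therefore no replicate check, no test and no error of any difference, and every value below describes these 2 cultures. Values are probe set intensities, and a difference is the log2 value in shRAP1 less that in shNC.

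SLC25 proteins sit mostly in the inner mitochondrial membrane, which is otherwise closed to charged metabolites. Each is built from a carrier repeat that occurs in triplicate, and most exchange one substrate for another, among them ADP for ATP, phosphate, citrate, aspartate for glutamate, acylcarnitines, cofactors and iron. They are made in the cytosol and inserted into the inner membrane by the TIM22 complex. They thereby connect metabolism in the cytosol with fatty acid oxidation and respiration inside the mitochondrion.

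A floor on low values was set at 78.0 on the linear scale, the median of all non-control values, and a gene passed it where the higher of its 2 values reached it. Of the 46 SLC25 genes 34 passed, as did 57.6% of all single-symbol genes, which left 10437 genes. The family as a whole was centred near 0. Of the 34, 20 were higher in shRAP1 and 14 lower, against 53.2% higher and 46.8% lower among all 10437 genes. The family's median difference was 0.020 and that of all genes 0.010, and the SD across genes was 0.16 in both. These are spreads between genes and not experimental errors. In 20 of the 34 the difference was smaller than 0.1 in size, a share of 58.8%, against 52.3% of all genes.

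Genes were counted at a size of 1.2-fold, a difference of 0.26. By this size 2 SLC25 genes were higher (SLC25A27 and SLC25A25), where 4.96% of all genes were, and 1 was lower (SLC25A20), where 3.58% were. As shares of the 34 these counts are 5.88% and 2.94%, close to the share of all genes, so they say nothing particular about the family. At 1.1-fold the counts were 6 higher (with SLC25A29, SLC25A44, SLC25A1 and SLC25A47), where 19.5% of all genes were, and 3 lower (with SLC25A33 and SLC25A4), where 14.4% were. None of the 34 reached 1.5-fold, a size that 0.211% of all genes reached upwards and 0.172% downwards.

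**Figure D1:**
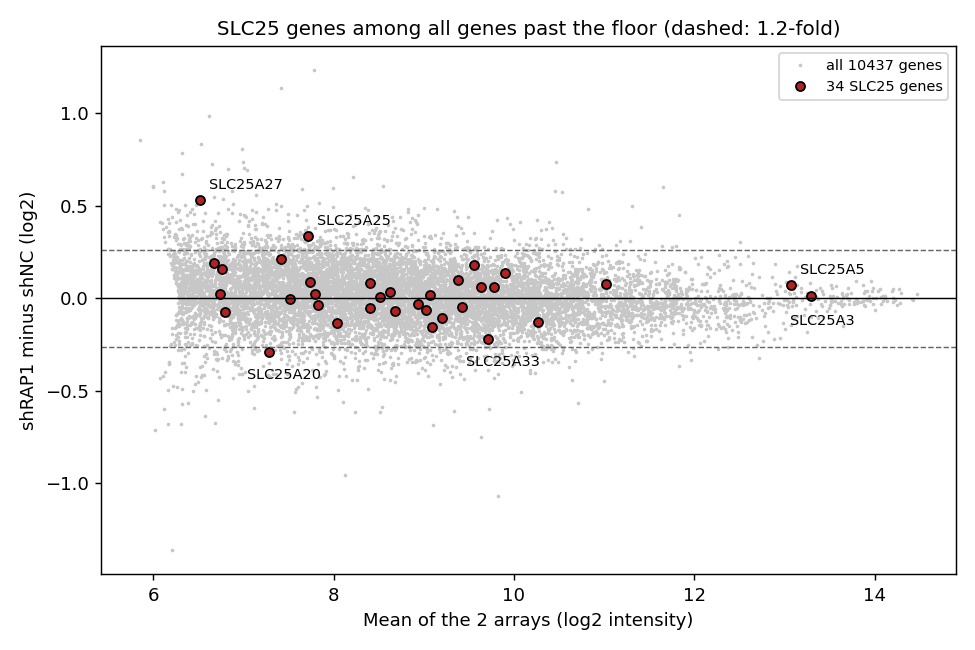
Difference between the arrays (shRAP1 minus shNC, log2) against the mean of both arrays (log2 intensity) for all 10437 genes past the floor in grey and the 34 SLC25 genes in red. The carriers lie within the cloud of all genes, and 3 of them pass the dashed lines at 1.2-fold.

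SLC25A27, a carrier related to the uncoupling proteins and also known as UCP4, had the largest difference of the family. Its brightest probe set read 110 on the shRAP1 array and 76.2 on the shNC array, a 1.45-fold higher value in shRAP1 and a difference of 0.53. This was the 30th highest of 10437 differences and 2.94 times the SD among the 500 genes nearest in brightness, the only carrier past 2 such SDs, where 4.81% of all genes were. All 6 of its probe sets read higher in shRAP1, but by unequal amounts, from 0.076 to 0.70. The signal was faint, since the shNC value lay just below the floor. Only 1 other probe set passed it, with 84.7 in shRAP1 and 80.4 in shNC, and it was the brighter on the shNC array. The probe set at 0.53 thus passed the floor, and counted as the brightest, only through its shRAP1 value. Its rank and its multiple of the SD rest on that choice. Against the floor itself the difference would be 0.50. The brightest probe set has a name ending in _x_at, the mark of probes that can match other transcripts, and without such probe sets the difference of SLC25A27 was 0.076.

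SLC25A25, a calcium-regulated carrier that exchanges ATP-Mg for phosphate, was also higher. Its brightest probe set read 236 in shRAP1 and 187 in shNC, a difference of 0.34 and a 1.26-fold higher value. The second probe set passed the floor only through the shRAP1 array, with 87.3 in shRAP1 and 74.5 in shNC, and the one below the floor read 60.4 in shRAP1 and 34.9 in shNC. All 3 were higher in shRAP1. The difference of the brightest was the 218th highest of all and 1.96 times the SD of its neighbours in brightness.

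SLC25A20, the carnitine-acylcarnitine carrier that brings long-chain fatty acids into the matrix for oxidation, was the lowest member. Its brightest probe set read 141 in shRAP1 and 173 in shNC, so shRAP1 stood at 81.7% of shNC, a difference of −0.29. The others read 137 in shRAP1 against 174 in shNC, and 137 in shRAP1 against 161 in shNC. All 3 probe sets were lower in shRAP1 and their differences ran from −0.35 to −0.24. The difference of the brightest was, in size, 1.90 times the SD of its neighbours in brightness, and it was the 271st lowest of all differences. With a pseudocount of 32 added before the log, SLC25A20 was at −0.24 and no longer reached 1.2-fold.

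**Figure D2:**
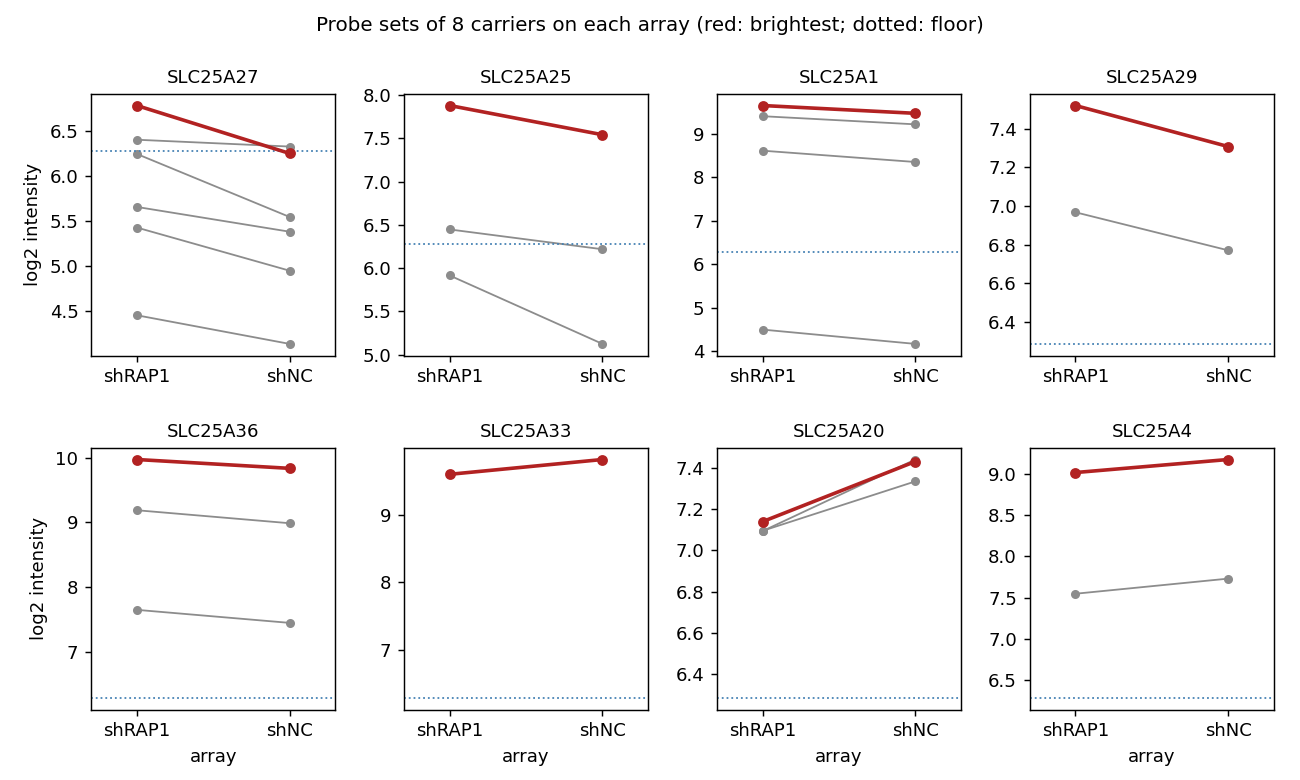
Each probe set of 8 carriers (log2 intensity, vertical scales differ between panels) on the shRAP1 array, left, and the shNC array, right, with the brightest probe set in red and the floor dotted. All 6 probe sets of SLC25A27 and all 3 of SLC25A25 slope down towards shNC, and all 3 of SLC25A20 slope up.

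Among members between 1.1-fold and 1.2-fold, the 3 largest differences in size were those of SLC25A33, SLC25A29 and SLC25A44, closely followed by SLC25A1 at 0.18. SLC25A33, which carries pyrimidine nucleotides, read 776 in shRAP1 and 903 in shNC on its single probe set, a difference of −0.22. The name of that probe set ends in _s_at, a less specific class, so without this class the gene has no value. SLC25A29, which carries basic amino acids, read 184 in shRAP1 and 158 in shNC, with differences of 0.21 and 0.20 on its probe sets. SLC25A44, which carries branched-chain amino acids, read 109 in shRAP1 and 95.8 in shNC, a difference of 0.19 on the only probe set past the floor. The 3 below the floor differed by between −0.0094 and 0.14.

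The promoters of the members with the largest differences, and of the pyrimidine nucleotide carriers SLC25A33 and SLC25A36, which differed in opposite directions, are printed so that their sequences can be set beside the values. They are RefSeq sequences of GRCh38.p14, the 250 bases before each gene's annotated start, 5′ to 3′ on the gene's strand. Capitals mark matches on either strand to 1 of 5 motifs.
SLC25A27, chr6:46652725-46652974, plus strand: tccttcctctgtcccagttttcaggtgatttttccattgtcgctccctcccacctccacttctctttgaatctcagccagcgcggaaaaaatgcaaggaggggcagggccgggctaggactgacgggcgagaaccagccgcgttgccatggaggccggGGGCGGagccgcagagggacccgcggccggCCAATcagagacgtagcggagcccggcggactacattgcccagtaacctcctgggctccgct
SLC25A25, chr9:128098257-128098506, plus strand: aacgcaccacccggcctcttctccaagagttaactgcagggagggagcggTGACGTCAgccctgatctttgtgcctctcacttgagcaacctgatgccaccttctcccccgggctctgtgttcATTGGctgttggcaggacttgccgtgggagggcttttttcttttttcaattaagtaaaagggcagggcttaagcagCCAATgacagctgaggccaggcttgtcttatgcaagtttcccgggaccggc
SLC25A20, chr3:48898883-48899132, minus strand: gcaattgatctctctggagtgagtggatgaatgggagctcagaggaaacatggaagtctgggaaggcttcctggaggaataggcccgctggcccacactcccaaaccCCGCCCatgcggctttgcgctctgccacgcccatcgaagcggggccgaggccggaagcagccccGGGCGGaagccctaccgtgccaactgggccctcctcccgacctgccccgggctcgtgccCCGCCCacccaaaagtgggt
SLC25A33, chr1:9539215-9539464, plus strand: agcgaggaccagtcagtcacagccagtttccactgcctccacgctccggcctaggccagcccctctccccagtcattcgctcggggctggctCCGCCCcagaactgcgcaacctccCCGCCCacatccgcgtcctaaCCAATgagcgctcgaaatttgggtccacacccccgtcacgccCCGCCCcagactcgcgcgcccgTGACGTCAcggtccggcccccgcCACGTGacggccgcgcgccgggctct
SLC25A36, chr3:140941586-140941835, plus strand: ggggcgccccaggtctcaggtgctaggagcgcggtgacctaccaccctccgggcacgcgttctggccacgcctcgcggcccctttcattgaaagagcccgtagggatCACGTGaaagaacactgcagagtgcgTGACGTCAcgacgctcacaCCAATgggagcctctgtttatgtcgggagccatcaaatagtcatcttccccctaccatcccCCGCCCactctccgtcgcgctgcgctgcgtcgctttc
The motifs searched were the cAMP response element (TGACGTCA), the E-box (CACGTG), the CCAAT box (CCAAT), the GC box (GGGCGG) and an EGR element (GCGTGGGCG), and no matches of different motifs overlap in the sequences printed. Upstream sequences were available for 39 of the 46 members. The cAMP response element was present in 3 of these 39, namely SLC25A25, SLC25A33 and SLC25A36, and in 1.77% of the 27305 promoters of that length. SLC25A33, lower in shRAP1, and SLC25A36, higher in shRAP1, each held 1 cAMP response element, 1 E-box and 1 CCAAT box. Any part of the motifs in the differences was not tested. The E-box was in 7 of 39 members and 6.49% of all promoters, the GC box in 27 of 39 and 42.3%, the CCAAT box in 17 of 39 and 33.0%, and the EGR element in 1 of 39 and 0.710%. The promoter of SLC25A20 held 3 GC boxes and no other motif searched, and that of SLC25A27 held 1 CCAAT box and 1 GC box. The 27305 promoters were not matched to the members in gene type or base content, and the gaps in share were not tested. A match says only that these letters are in the window.

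The carriers of ATP, ADP and phosphate supply oxidative phosphorylation with its substrates. SLC25A3, the phosphate carrier, read 10099 in shRAP1 and 10034 in shNC on its brightest probe set, a difference of 0.0094, and its 6 probe sets lay between −0.14 and 0.040. SLC25A5, the ADP/ATP carrier of proliferating cells (ANT2), read 8803 in shRAP1 and 8381 in shNC, a difference of 0.071, with the other probe set at 0.080. SLC25A4, the ADP/ATP carrier of heart and muscle (ANT1), read 518 in shRAP1 and 578 in shNC, a difference of −0.16, with the other at −0.18. Thus the ADP/ATP carriers lay on opposite sides of 0, each on 2 of 2 probe sets. RefSeq lists 9 pseudogenes of SLC25A5 and 3 of SLC25A3, and probes of these genes may share sequence with them. SLC25A6, the other common ADP/ATP carrier, was not analysed here.

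Of the ATP-Mg/phosphate carriers, which adjust the adenine nucleotide pool of the matrix in response to calcium, only SLC25A25 reached 1.2-fold. SLC25A24 read 814 in shRAP1 and 781 in shNC, and SLC25A23 read 221 in shRAP1 and 208 in shNC, differences of 0.060 and 0.087. Each also had a probe set past the floor of the opposite sign, at −0.11 for SLC25A24 and −0.22 for SLC25A23. The group of 4 measured carriers of phosphate and ATP-Mg had a median of 0.074, which was −0.020 when each gene was the median of its probe sets. Besides SLC25A27, the carriers related to the uncoupling proteins were SLC25A14, with 224 in shRAP1 and 230 in shNC, a difference of −0.037, and SLC25A30, with 402 in shRAP1 and 422 in shNC, a difference of −0.068. A second probe set of SLC25A30 past the floor was at 0.12.

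Among carriers of carboxylates, SLC25A1, which exports citrate to the cytosol for lipid synthesis, read 803 in shRAP1 and 709 in shNC, a difference of 0.18. Its 4 probe sets were all higher in shRAP1, by 0.18 to 0.33, but the 3 past the floor all have names ending in _x_at, and RefSeq lists 5 pseudogenes of this gene. SLC25A10, the dicarboxylate carrier, read 348 in shRAP1 and 330 in shNC, a difference of 0.080. SLC25A11, which exchanges oxoglutarate for malate, read 484 in shRAP1 and 495 in shNC, a difference of −0.033. Its other probe sets stood at −0.12 and −0.23, so the brightest was the closest to 0.

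SLC25A12 and SLC25A13, which exchange aspartate for glutamate, work with SLC25A11 in the malate-aspartate shuttle, which moves reducing equivalents into the matrix. SLC25A13 (citrin) read 252 in shRAP1 and 276 in shNC, a difference of −0.13 with 3 of 3 probe sets lower. SLC25A12 (aralar) read 224 in shRAP1 and 220 in shNC, a difference of 0.024. The glutamate carrier SLC25A22 read 688 in shRAP1 and 642 in shNC, a difference of 0.10. Its other probe set, just below the floor, read 71.4 in shRAP1 and 77.9 in shNC, a difference of −0.12. The ornithine carrier SLC25A15 read 675 in shRAP1 and 697 in shNC, a difference of −0.046, with its other probe sets at 0.073 and 0.088. SLC25A38, which supplies glycine for haem synthesis, was at 0.0060. The 4 measured carriers of other amino acids, SLC25A29 and SLC25A44 included, had a median of 0.097.

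Carriers of cofactors, nucleotides and glutathione lay on both sides of 0, with 4 of 9 higher in shRAP1, 5 lower and a median of −0.0036. This median was −0.044 after a lowess trend of the difference on brightness was removed and −0.073 over 11 members with no floor. At the upper end SLC25A36, the second pyrimidine nucleotide carrier, read 1003 in shRAP1 and 912 in shNC, a difference of 0.14 with its others at 0.20 and 0.20. At the lower end stood SLC25A33, described above, and SLC25A32, which carries folate or flavin adenine dinucleotide, with 1174 in shRAP1 and 1285 in shNC, a difference of −0.13. SLC25A39, needed for mitochondrial glutathione import, read 2143 in shRAP1 and 2029 in shNC, a difference of 0.079. Its paralog SLC25A40 read 568 in shRAP1 and 610 in shNC, a difference of −0.10, with the other probe set at 0.037. The coenzyme A carrier SLC25A16 read 109 in shRAP1 and 114 in shNC, a difference of −0.073. The second coenzyme A carrier, SLC25A42, was at 0.021, the S-adenosylmethionine carrier SLC25A26 at 0.035 and the peroxisomal carrier SLC25A17 at −0.0036.

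The iron carriers were close to 0 on their brightest probe sets. SLC25A37 (mitoferrin 1) read 898 in shRAP1 and 863 in shNC, a difference of 0.059, and all 5 of its probe sets were higher in shRAP1, up to 0.19. SLC25A28 (mitoferrin 2) read 333 in shRAP1 and 345 in shNC on a single probe set, a difference of −0.051. Of the remaining measured members, SLC25A46, an outer membrane protein of mitochondrial dynamics, read 540 in shRAP1 and 533 in shNC, a difference of 0.019. The orphan SLC25A43 read 508 in shRAP1 and 531 in shNC, a difference of −0.063. SLC25A47, a carrier of liver, read 115 in shRAP1 and 103 in shNC, a difference of 0.16, but its 4 probe sets past the floor ran from −0.095 to 0.44, with the 2 higher ones both ending in _x_at.

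**Figure D3:**
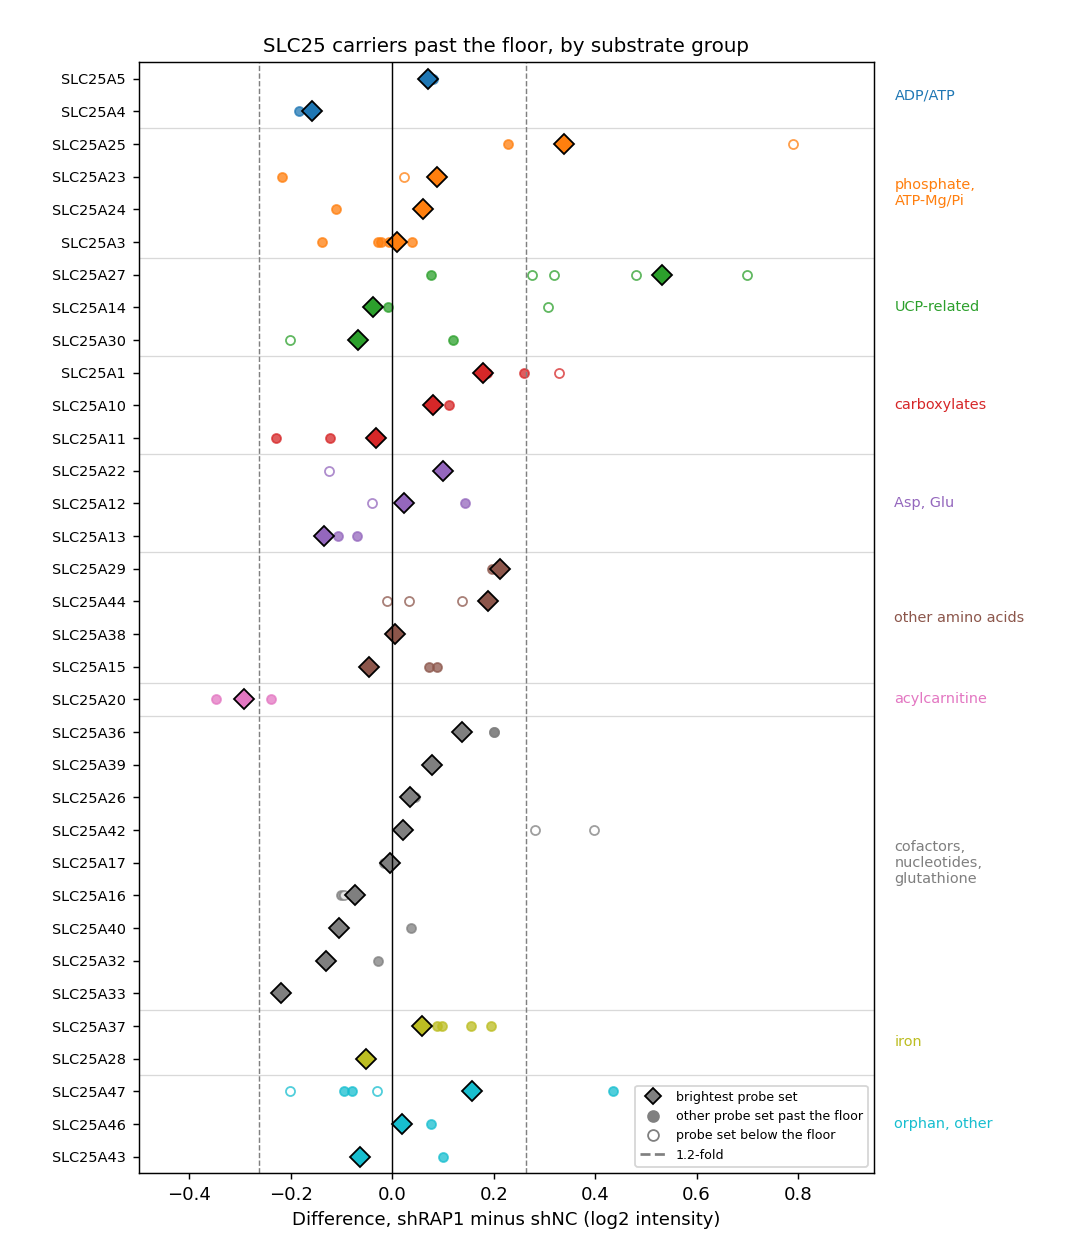
Difference between the arrays (shRAP1 minus shNC, log2 intensity) of every probe set of the 34 carriers past the floor, grouped by substrate, with the brightest probe set as a diamond, the others past the floor as filled circles and those below it as open circles. Diamonds of SLC25A27 and SLC25A25 lie right of the 1.2-fold line and that of SLC25A20 left of it, and within most groups members lie on both sides of 0.

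At least 2 probe sets passed the floor for 27 members, and all were higher in shRAP1 for 11, all lower for 8 and of both signs for 8. Among all 6135 genes with at least 2 such probe sets, 29.2% were higher on all, 31.0% lower on all and 39.8% of both signs. A probe set passed by the higher of its 2 values, for members and all genes alike, so some passed through 1 array only. Among those that passed through shRAP1 only were the second probe set of SLC25A25 and the brightest of SLC25A27. Probe sets of a gene were read on the same 2 arrays, so their agreement does not replace replicate cultures. Among 10 pairs of carriers of like substrate or descent in which both passed the floor, the widest gap in difference was −0.36 for SLC25A33 minus SLC25A36, followed by 0.28 for SLC25A25 minus SLC25A24 and −0.23 for SLC25A4 minus SLC25A5.

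A further 12 members stayed below the floor on both arrays, so their differences carry little information. They include carriers known for expression in other tissues, such as SLC25A31, the testis ADP/ATP carrier, with 8.44 in shRAP1 and 9.37 in shNC, SLC25A18, a glutamate carrier of brain, with 14.7 in shRAP1 and 16.6 in shNC, and the ornithine carrier SLC25A2, with 28.0 in shRAP1 and 28.2 in shNC. The oxodicarboxylate carrier SLC25A21 and SLC25A41, SLC25A34, SLC25A35, SLC25A48 and SLC25A53 were also below. SLC25A45 came closest to the floor, with 71.6 in shRAP1 and 67.1 in shNC. The NAD carriers SLC25A51 and SLC25A52 read 55.2 in shRAP1 and 62.4 in shNC, and 53.4 in shRAP1 and 64.4 in shNC, each on 1 probe set ending in _x_at. These near-identical genes may not be told apart by such probes.

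Lists of genes that work beside the carriers were described in the same way, and 1 array per group cannot test a gap between lists. Of 15 measured genes of the import route for carriers (TOM subunits, small TIM chaperones and the TIM22 complex), 12 were lower in shRAP1 and 3 higher, with a median of −0.064. TIMM13 and TIMM10, small TIM chaperones of the intermembrane space, were at −0.20 and −0.19, and TOMM20, an outer membrane receptor, at 0.19. Of 9 genes of the presequence route, TIM23 and its import motor, 9 were lower, with a median of −0.12 and a range from −0.19 to −0.050. TIMM44 was at −0.19, the motor co-chaperone GRPEL1 at −0.17 and TIMM17A at −0.15. None of these 24 genes reached 1.2-fold, and 46.8% of all genes were lower. After a trend on brightness was removed the medians were −0.051 and −0.12, against 0.0050 for the SLC25 genes and 0.0060 for the list of haem and iron-sulfur synthesis.

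All 4 enzymes of the malate-aspartate shuttle were lower, GOT2 at −0.18, GOT1 at −0.16, MDH1 at −0.041 and MDH2 at −0.012, with a median of −0.10. None of the 4 reached 1.2-fold. Of all genes past the floor 46.8% were lower, and 52.2% with the floor at the 75th percentile, which all 4 enzymes passed. The pyruvate carrier and sideroflexins had a median of −0.0081, with 3 higher and 4 lower. The sideroflexin SFXN3 was at 0.14, and the pyruvate carrier subunits MPC1 and MPC2 were both at −0.13. Of the genes with the carrier fold but other symbols, UCP2 was at 0.28, with 4 probe sets between −0.024 and 0.33, and MTCH1 and MTCH2, outer membrane proteins, at −0.096 and −0.074. The list of calcium uniporter genes, to which LETM1 was added, had 2 of 6 higher, 4 lower and a median of −0.047. LETM1 was at 0.29 (3 probe sets between 0.037 and 0.29), MCU, the uniporter pore, at 0.12 and SMDT1 at −0.12. The outer membrane channels VDAC1 and VDAC3 stood at 0.12 and −0.13. Mitochondrial one-carbon enzymes, which use the folate and glycine that carriers deliver, had 3 of 6 lower and a median of −0.040, with GCSH at −0.22. Haem and iron-sulfur synthesis had 6 of 13 lower and a median of 0.0018, with ferrochelatase, FECH, at −0.22.

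**Figure D4:**
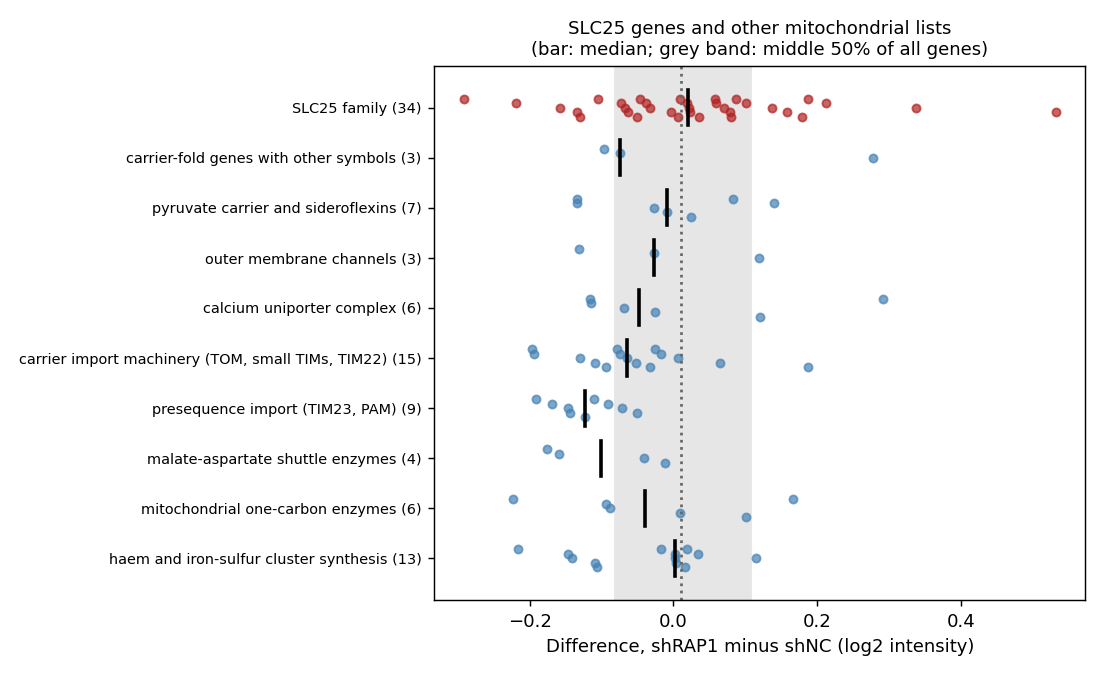
Differences (shRAP1 minus shNC, log2 intensity) of the SLC25 genes in red and of 9 lists of related mitochondrial genes in blue, with the number of genes past the floor in brackets, the list median as a bar and the middle 50% of all genes as a grey band. The carriers spread to both sides of 0, while 9 of 9 presequence import genes lie below it.

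As a check of the target, TERF2IP, the telomeric protein also called RAP1, read 624 in shRAP1 and 1311 in shNC on its only probe set past the floor, 47.6% of shNC, and the GTPase genes RAP1A and RAP1B stood at 88.0% and 93.3% on their brightest. Of 7 epithelial markers 6 passed the floor, among them EPCAM with 6292 in shRAP1 and 6661 in shNC and CDX2 with 191 in shRAP1 and 183 in shNC, while VIL1 read 11.1 and 10.4 in the same order. None of the leukocyte, fibroblast or endothelial markers passed. The polyadenylated spike-in controls dap, lys, phe and thr, 6 probe sets each, had median differences of −0.30, −0.41, −0.29 and 0.41. Of the SLC25 genes past the floor, 3 (SLC25A27, SLC25A25 and SLC25A20) reached the smallest of these medians in size and 1 (SLC25A27) the largest. The part of the spike-in differences in those of the carriers was not tested.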

How the data were processed

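RNA from 1 shRAP1 and 1 shNC culture was labelled by 3′ in vitro transcription and hybridised to Affymetrix arrays, per the labels' protocols. The deposited intensity values are on a linear scale, as read from the values, and were made with RMA, per the submitters' processing notes. The RMA version, and whether other arrays entered the normalisation, is not given in the sources used here. RMA equalises the arrays' distributions, so differences are relative to the other genes. Of 49293 non-control probe sets, 44988 carried 1 symbol in the platform annotation, and only these were used. All 46 members matched RefSeq (GRCh38.p14) by gene identifier with the same symbol. log2 was taken with no pseudocount, and the brightest probe set was that with the highest mean log2 value. By rule, values on each array were given for the 12 highest and 12 lowest members past the floor and the brightest of each group, and in other lists up to 3 genes with the largest differences were named. MDH2 and the values of other members were added after they were seen. Members and lists were chosen with earlier results of these data known. Alternatives changed the probe set rule, the floor, the probe sets admitted, the centring (lowess, span 0.3), the pseudocount (32) and the size counted. The computation was tested on simulated data. Python 3.11.15, numpy 2.4.6, pandas 2.3.3, scipy 1.17.1, statsmodels 0.14.6 and matplotlib 3.10.9 were used. The number of arrays limits the precision.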

Additional observations from a re-analysis of the deposited data

How the results depend on the processing

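No paired analysis was possible because each group holds 1 array. The family's median (0.020) stayed between 0.0050 and 0.024 under 6 alternatives. With the floor at the 75th percentile the counts higher and lower (20 and 14 of 34) were 12 and 9 of 21. There 52.2% of all genes were lower. With no floor the counts were 24 and 22 of 46, and 45.7% of all genes were lower. They were 17 and 17 with lowess centring, where 50.4% of all genes were lower. The count at least 1.2-fold higher (2) was 0 with the higher floor, 1 without the less specific probe sets (names ending in _x_at or _s_at), 6 at 1.1-fold and 0 at 1.5-fold. At least 1.2-fold lower (1 gene) were 2 with no floor, where SLC25A52 joined, 0 with the higher floor, 0 with the pseudocount, 3 at 1.1-fold and 0 at 1.5-fold. The higher floor leaves SLC25A20, SLC25A25 and SLC25A27 out, so it holds no value for them. With each gene as the median of its probe sets, the median of the phosphate and ATP-Mg carriers (0.074) turned to −0.020, that of the pyruvate carrier and sideroflexins (−0.0081) to 0.0035 and that of haem and iron-sulfur synthesis (0.0018) to −0.029. Presequence import was then at −0.19. Without the less specific probe sets the phosphate and ATP-Mg carriers stood at −0.012. With the higher floor the other amino acid carriers (0.097) stood at −0.020 on 2 genes and haem and iron-sulfur synthesis at −0.0074. The cause of these turns was not tested. Of 187 single-gene values, 13 changed sign, over 10 genes, none of them past 1.2-fold.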
